A study of Mus musculus with 10 samples.

Results

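The genes described here are 10 genes of the STAT5 pathway: the transcription factors Stat5a and Stat5b, the feedback inhibitors Cish, Socs1, Socs2 and Socs3, the kinases Pim1 and Pim2, and the cytokines Osm and Lif. They were found on the array through the transcript accession of each probe, which gave 13 of 56605 non-control probes, with 1 further probe each for Stat5a, Socs2 and Osm. All 10 genes were among the 22008 genes tested, and all 13 probes passed the filter on dim probes. The cells were BCR-ABL+ colonies grown from mouse bone marrow of donors aged 6 weeks. Marrow was transduced with retrovirus, plated in methylcellulose with no growth factor, and colonies were picked after 10 days. RNA of 4 samples carried Cdk6-K43M, a form of the cell cycle kinase CDK6 known to lack kinase activity because a lysine of its ATP-binding site is exchanged, and RNA of 4 samples was Cdk6-/-, lacking the gene. Each sample was labelled with Cy5 and compared on its own array with 1 pool of 4 wild-type (Cdk6+/+) samples in Cy3, and 1 further array per genotype held the pool of its 4 RNAs with the dyes exchanged. All groups carried the same oncogene and were grown the same way, so there were no colonies without BCR-ABL and none with added cytokine. The study's design text speaks of 4 biological replicates, and the labels do not say how many animals or colonies stood behind a sample, so p-values measure the spread between these samples.

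STAT5 proteins wait in the cytoplasm in an inactive form. Cytokine receptors activate Janus kinases, which phosphorylate STAT5 on tyrosine, and the phosphorylated proteins pair, enter the nucleus and bind DNA. BCR-ABL, a fused tyrosine kinase, activates STAT5 without a cytokine. Cish and the Socs genes are induced by this route and encode proteins with an SH2 domain and a SOCS box that bind activated receptors or Janus kinases and dampen the signal, so their transcripts are widely used as a readout of STAT activity. Pim1 and Pim2 encode serine and threonine kinases that support survival and growth of blood cells, and Osm and Lif are ligands of the interleukin-6 family that signal through the receptor subunit gp130.

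STAT dimers recognise TTCNNNGAA, a palindrome that reads the same on both strands. RefSeq promoter windows of 250 bases before the gene start (assembly GRCm38.p6) were held for 8 of the 10 genes, 11 windows in all, and for Socs2 and Osm none was held. The motif was found in 1 of the 11 windows, that of Socs3, and in 7.02% of all 32851 windows. It lay 154 to 146 bases before the Socs3 start. The windows of Cish and Lif are shown because these genes changed against wild type, and that of Socs3 for its motif, in capitals. The Cish window is chr9:107296409-107296658 on the plus strand, the Lif window chr11:4257318-4257567 on the plus strand, and the Socs3 window chr11:117969367-117969616 on the minus strand. A missing match says only that these letters are not in the window.
Cish: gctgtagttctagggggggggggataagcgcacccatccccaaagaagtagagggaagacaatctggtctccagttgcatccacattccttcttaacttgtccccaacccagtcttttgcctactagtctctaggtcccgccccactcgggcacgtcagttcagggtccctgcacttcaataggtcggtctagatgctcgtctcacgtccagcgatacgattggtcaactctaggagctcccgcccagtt
Lif: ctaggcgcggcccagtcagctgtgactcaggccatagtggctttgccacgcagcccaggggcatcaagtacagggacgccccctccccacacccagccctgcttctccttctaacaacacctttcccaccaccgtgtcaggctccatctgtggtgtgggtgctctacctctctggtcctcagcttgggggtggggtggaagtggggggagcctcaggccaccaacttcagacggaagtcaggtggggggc
Socs3: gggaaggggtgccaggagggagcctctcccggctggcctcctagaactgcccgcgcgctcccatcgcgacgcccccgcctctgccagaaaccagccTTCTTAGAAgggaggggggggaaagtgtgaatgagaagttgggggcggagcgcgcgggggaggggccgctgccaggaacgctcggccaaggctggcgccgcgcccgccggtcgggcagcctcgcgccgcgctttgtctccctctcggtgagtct

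In the mutant channel 46.9% to 49.9% of probes cleared background by the scanner's own test, and in the wild-type channel 45.8% to 50.04%. Log2 ratios of samples correlated with r of 0.322 to 0.672 within Cdk6-K43M and 0.329 to 0.594 within Cdk6-/-. Cdk6 itself had log2 ratios of 0.31 to 0.83 on the 5 Cdk6-K43M arrays, and of -0.67 to 0.00 on the 5 Cdk6-/- arrays. The 0.00 belonged to the library labelled Cdk6-/- replicate 4, which the probe thus does not separate from wild type. The labels do not say where that probe lies relative to the deletion. All 17 B-lineage progenitor markers were well above background on all arrays, with 5 higher and 4 lower in Cdk6-K43M and 1 higher in Cdk6-/-. Of 20 granulocyte and monocyte markers 15 were tested, and 5 were lower in Cdk6-K43M and 7 in Cdk6-/-. Among those lower in both, Ngp, Camp and Mpo were well above background on 0 of 4 arrays of each mutant. S100a8 was so on 0 of 4 Cdk6-/- arrays and 1 of 4 Cdk6-K43M arrays. These genes were kept only through the wild-type channel, where they are high, so their calls add no separate support. The summed signal of the 15 tested markers ran between 10971 and 59354 in Cdk6-K43M and between 7334 and 15783 in Cdk6-/-. In the pool it was 20559.8 to 27130.4, and Ltf and Prtn3 were not well above background in any channel. Of T and NK cell markers 7 of 11 were tested, with 2 higher and 1 lower in Cdk6-K43M and 2 higher and 2 lower in Cdk6-/-. Of erythroid and megakaryocyte markers 5 of 8 were tested, with 1 higher in Cdk6-/- and 0 called in Cdk6-K43M. Only 1 of 6 stromal and endothelial markers was tested and did not pass, and 0 of 6 mast cell markers reached the filter. By the test described below, 9.77% of all genes were higher and 10.3% lower in Cdk6-K43M, and 3.39% higher and 3.85% lower in Cdk6-/-. The part of other cell types in the values below was not tested, and fewer cells of a type and less RNA per cell cannot be told apart here.

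Against the wild-type pool, Socs2 and Cish were lower in both mutants, and Lif was higher in Cdk6-K43M. Both calls in Cdk6-/- were lost with slide as a block, with Agilent's processed signals, under median centring and with standard errors widened for the pool, where adjusted p ran between 0.0508 and 0.234 for Socs2 and between 0.0538 and 0.259 for Cish. The other 7 genes did not pass the test in Cdk6-K43M, nor the other 8 in Cdk6-/-. By limma's moderated test with Benjamini-Hochberg adjustment over all genes (threshold 0.05), 10.3% of all genes were lower and 9.77% higher in Cdk6-K43M, together 20.1%, so 2 lower and 1 higher of 10 members stand near that background. In Cdk6-/-, 3.85% of all genes were lower and 3.39% higher, together 7.24%, beside 2 lower and 0 higher of the 10. Of all genes 2.57% were called lower in both mutants and 1.83% higher in both, beside 2 and 0 members, and both mutants were compared with the same pool. The members' median log2 change was -0.03 in Cdk6-K43M and -0.08 in Cdk6-/-, beside -0.01 and 0.00 over all genes. The pool was 1 control sample whose own spread entered no fit.

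**Figure D1:**
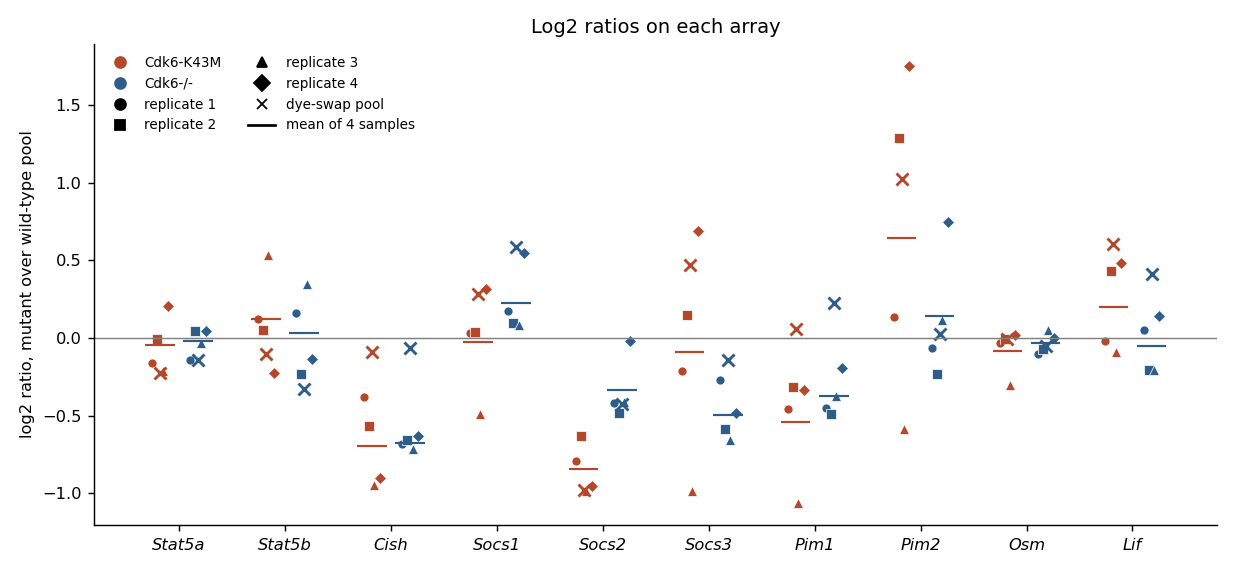
Log2 ratio of each mutant array over the wild-type pool (vertical axis) for the 10 genes, Cdk6-K43M in red on the left and Cdk6-/- in blue on the right of each gene; symbols mark replicates, crosses the dye-swap pools and bars the mean of 4 samples. Socs2 and Cish lie below 0 on all 10 arrays, and Pim2 runs between -0.59 and 1.75 in Cdk6-K43M.

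Neither STAT5 gene passed the test in either mutant. Stat5a, the form best known from mammary gland, had log2 ratios of -0.16, -0.00, -0.21 and 0.20 in Cdk6-K43M samples 1 to 4 and of -0.14, 0.05, -0.03 and 0.05 in Cdk6-/- samples 1 to 4, with -0.23 and -0.14 on the 2 swaps. The fitted change was -0.13 in Cdk6-K43M (adjusted p = 0.243) and -0.09 in Cdk6-/- (adjusted p = 0.456). A second, dimmer Stat5a probe gave -0.01 in Cdk6-K43M and -0.04 in Cdk6-/-, and its ratios of 0.21, -0.41, 0.27 and -0.51 in Cdk6-K43M samples 1 to 4 had the opposite sign to the first probe's in samples 1, 3 and 4. The 95% interval of the Stat5a change ran from -0.28 to 0.03 in Cdk6-K43M and from -0.24 to 0.06 in Cdk6-/-, so larger changes of the first probe's signal lie outside it.

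Stat5b, the close relative that mediates growth hormone action in liver, had ratios of 0.12, 0.05, 0.53 and -0.22 in Cdk6-K43M samples and of 0.16, -0.23, 0.35 and -0.14 in Cdk6-/- samples. Both groups straddle 0 and overlap over most of their range. The fitted changes were -0.01 in Cdk6-K43M (adjusted p = 0.961) and -0.13 in Cdk6-/- (adjusted p = 0.563), with intervals of -0.28 to 0.26 and -0.40 to 0.15. The 2 swaps, at -0.10 in Cdk6-K43M and -0.33 in Cdk6-/-, lay below the mean of the single samples, which was 0.12 in Cdk6-K43M and 0.04 in Cdk6-/-.

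Socs2 fell the most of the 10. SOCS2 is known as the brake on growth hormone signalling, and mice without it grow to a large size. Its log2 ratios were -0.79, -0.63, -0.98 and -0.95 in Cdk6-K43M samples 1 to 4 and -0.98 on the swap, and -0.42, -0.48, -0.41 and -0.02 in Cdk6-/- samples 1 to 4 and -0.43 on the swap. Every array lay below 0, and the Cdk6-K43M samples all lay below the Cdk6-/- samples. Transcript was 1.87-fold lower in Cdk6-K43M (log2 -0.90, SE 0.0835, adjusted p = 0.000162) and 1.31-fold lower in Cdk6-/- (log2 -0.39, SE 0.0835, adjusted p = 0.0265). The mean log2 signal was 12.92 in the Cdk6-K43M channel and 13.35 in the Cdk6-/- channel, against 13.72 in the wild-type channel of the same 8 arrays.

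Both Socs2 probes gave the same order of the genotypes. The second probe had ratios of -0.74, -0.53, -0.86 and -0.86 in Cdk6-K43M samples and of -0.38, -0.35, -0.34 and 0.07 in Cdk6-/- samples. It passed in Cdk6-K43M (log2 -0.69, adjusted p = 0.000594) and did not pass in Cdk6-/- (log2 -0.21, adjusted p = 0.156). The library labelled Cdk6-/- replicate 4 was near wild type on both probes. Without it the Socs2 change in Cdk6-/- was -0.45 (adjusted p = 0.00963). Without Cdk6-/- replicate 1 or replicate 2 it was -0.37 and -0.35 and no longer passed (adjusted p = 0.0734 and 0.0612). The Cdk6-K43M change passed under every alternative run, between -0.95 and -0.65.

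Cish encodes CIS, the SOCS family member whose gene is a classical direct target of STAT5, and like Socs2 it was lower on all 10 arrays, as 10.3% of all genes kept 1 sign on all of them. Its log2 ratios were -0.38, -0.57, -0.95 and -0.90 in Cdk6-K43M samples 1 to 4, and -0.68, -0.66, -0.72 and -0.63 in Cdk6-/- samples 1 to 4. The Cdk6-/- samples lay close together, inside the wider range of Cdk6-K43M. On the swaps the ratio was only -0.09 in Cdk6-K43M and -0.07 in Cdk6-/-. With the dye term the fitted change was -0.39 in Cdk6-K43M (1.31-fold lower, SE 0.0853, adjusted p = 0.0104) and -0.37 in Cdk6-/- (1.29-fold lower, SE 0.0853, adjusted p = 0.0324).

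The size of the Cish change depends on the swaps. The dye term itself was -0.30 for Cish (adjusted p = 0.0246), and a dye effect was called for 6.51% of all genes. Without the swaps the Cish change was -0.70 in Cdk6-K43M (adjusted p = 0.00123) and -0.67 in Cdk6-/- (adjusted p = 0.0029). Leaving out any of the 4 Cdk6-/- samples ended the call of Cish in Cdk6-/-, with adjusted p between 0.0518 and 0.0810 and the change between -0.38 and -0.36. In Cdk6-K43M the call held without each sample in turn, but it was lost under median centring, at -0.14 (adjusted p = 0.307), and with standard errors widened for the pool (adjusted p = 0.0919).

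**Figure D2:**
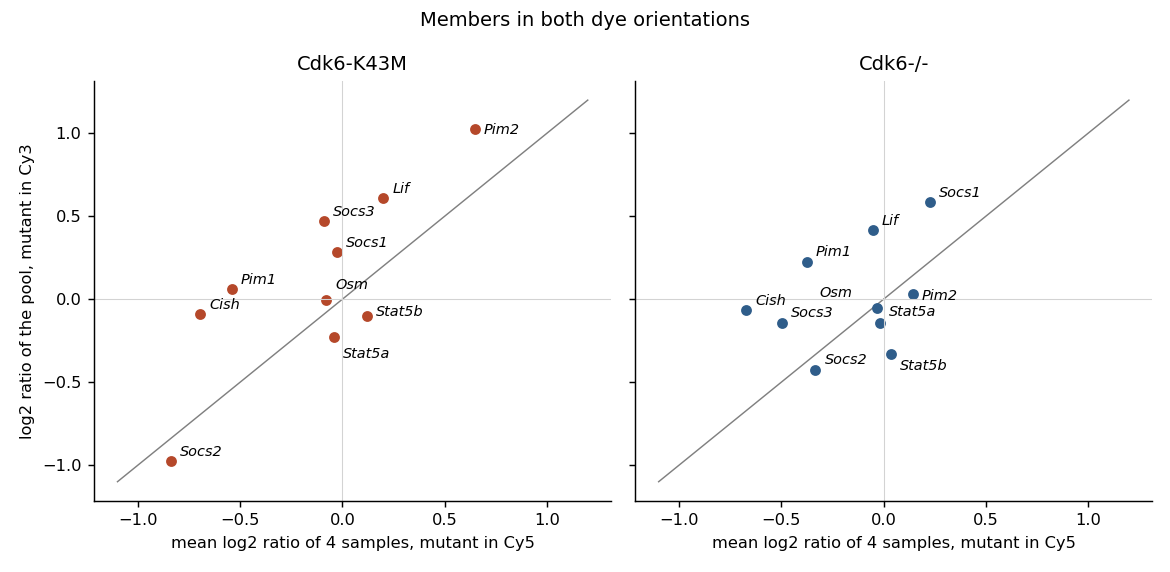
Mean log2 ratio of the 4 samples with the mutant in Cy5 (horizontal axis) against the log2 ratio of the pool with the mutant in Cy3 (vertical axis), Cdk6-K43M in the left panel and Cdk6-/- in the right; the line marks equal values. Socs2 lies near the line in both panels, while Cish, Pim1, Lif, Socs3 and Socs1 lie above it in both.

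Socs1, the inhibitor of interferon and common gamma chain cytokine signals, did not pass in either mutant. Its ratios were 0.03, 0.04, -0.49 and 0.32 in Cdk6-K43M samples and 0.18, 0.10, 0.08 and 0.55 in Cdk6-/- samples, with 0.28 and 0.58 on the swaps. All 5 Cdk6-/- arrays lay above 0, and a single sign on all 5 arrays was seen for 24.4% of all genes in Cdk6-/- and for 29.8% in Cdk6-K43M. The fitted change was 0.14 in Cdk6-K43M (adjusted p = 0.469) and 0.40 in Cdk6-/- (SE 0.118, adjusted p = 0.0723). In Cdk6-/- it passed when Cdk6-K43M replicate 3 or replicate 4 was left out of the shared fit, at 0.38 (adjusted p = 0.0405) and 0.41 (adjusted p = 0.0416).

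Socs3, best known as a STAT3 target that blocks gp130 receptors, varied widely in Cdk6-K43M. Its ratios were -0.21, 0.15, -0.98 and 0.69 in Cdk6-K43M samples and -0.27, -0.58, -0.65 and -0.48 in Cdk6-/- samples, with 0.47 and -0.14 on the swaps. The Cdk6-/- arrays were all below 0, and the SD of the single samples was 0.702 in Cdk6-K43M and 0.168 in Cdk6-/-. Neither fit passed, with 0.16 in Cdk6-K43M (SE 0.205, adjusted p = 0.641) and -0.29 in Cdk6-/- (SE 0.205, adjusted p = 0.417). The shared standard error of this gene carries the spread of Cdk6-K43M into the Cdk6-/- fit.

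Pim1, a STAT target and a common site of retroviral insertion in mouse lymphoma, lay below the pool in one dye orientation and above it in the other. Its ratios were -0.46, -0.32, -1.06 and -0.33 in Cdk6-K43M samples and -0.45, -0.49, -0.37 and -0.19 in Cdk6-/- samples. All 8 single samples were below the pool, yet the swaps gave 0.06 in Cdk6-K43M and 0.23 in Cdk6-/-. With the dye term (-0.30, adjusted p = 0.0744) the fitted changes were -0.24 in Cdk6-K43M (adjusted p = 0.16) and -0.07 in Cdk6-/- (adjusted p = 0.723), and neither passed. Without the swaps Cdk6-K43M passed at -0.54 (adjusted p = 0.0103), while Cdk6-/- did not, at -0.37 (adjusted p = 0.0622).

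Pim2, the PIM kinase that is controlled mainly through the amount of its transcript, had the widest spread of the 10. Its ratios were 0.13, 1.29, -0.59 and 1.75 in Cdk6-K43M samples and -0.07, -0.23, 0.12 and 0.75 in Cdk6-/- samples, with 1.03 and 0.03 on the swaps. Cdk6-K43M samples 2 and 4 were high and sample 3 was low, so the group enclosed the whole range of Cdk6-/-. The fitted change was 0.76 in Cdk6-K43M (SE 0.326, adjusted p = 0.132) and 0.16 in Cdk6-/- (SE 0.326, adjusted p = 0.804). Without Cdk6-K43M replicate 3 it was 1.03 in Cdk6-K43M and passed (adjusted p = 0.024).

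Osm, oncostatin M, a STAT5-induced cytokine of blood cells, lay close to the pool in nearly all samples. Its ratios were -0.03, -0.01, -0.30 and 0.02 in Cdk6-K43M samples and -0.10, -0.07, 0.05 and 0.00 in Cdk6-/- samples. Only Cdk6-K43M sample 3 stood below the rest. The fitted changes were -0.06 in Cdk6-K43M (adjusted p = 0.559) and -0.03 in Cdk6-/- (adjusted p = 0.822), with intervals of -0.19 to 0.08 and -0.16 to 0.11. The second, dimmer Osm probe was well above background on 3 of 4 arrays of each mutant and gave -0.01 and 0.08.

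Lif, leukaemia inhibitory factor, which keeps mouse embryonic stem cells undifferentiated, was 1.33-fold higher in Cdk6-K43M. Its ratios were -0.02, 0.43, -0.09 and 0.48 in Cdk6-K43M samples with 0.61 on the swap, and 0.05, -0.20, -0.20 and 0.14 in Cdk6-/- samples with 0.42 on the swap. Samples 2 and 4 of Cdk6-K43M were high and samples 1 and 3 were near the pool, within the range of Cdk6-/-. The fitted change was 0.41 in Cdk6-K43M (SE 0.104, adjusted p = 0.0199) and 0.17 in Cdk6-/- (SE 0.104, adjusted p = 0.335). The call rests on the swaps, since without them the change in Cdk6-K43M was 0.20 (adjusted p = 0.221), and it was also lost with standard errors widened for the pool (adjusted p = 0.14). Lif was also dim, and was well above background on 4 of 4 Cdk6-K43M arrays, 3 of 4 Cdk6-/- arrays and in 9 of 10 wild-type channels.

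Cdk6-K43M samples 2 and 4 had the highest ratios of Pim2, Lif and Socs3 within their genotype, and sample 3 the lowest of all 3 genes. The same order held for Socs1, Pim1 and the brighter probes of Stat5a and Osm, while for Stat5b sample 3 was the highest. On the second Stat5a probe sample 3 was the highest (0.27) and sample 4 the lowest (-0.51). On the second Osm probe sample 1 was the lowest (-0.21), and sample 3 (0.09) lay above sample 4 (-0.01). Samples 2 and 4 lay on slide 2 and sample 3 on slide 3. Within Cdk6-K43M alone an effect of the slide thus cannot be told apart from differences between samples. The Cdk6-/- samples on slides 2 and 3 had Socs3 at -0.57 and -0.58, Pim2 at 0.43 and -0.23, and Lif at -0.03 and -0.20. The part of the slide was not tested. The granulocyte and monocyte markers had median log2 ratios of -0.76, -0.47, -0.74 and 0.36 in Cdk6-K43M samples 1 to 4, against -1.35 to -0.58 in Cdk6-/- samples. Sample 4 of Cdk6-K43M was highest there too, and the part of these cells in the spread of Pim2, Lif and Socs3 was not tested. Sample 3 was also the lowest Cdk6-K43M sample of Socs2 and Cish. Sample 4 was their next lowest, so both genes followed the order above only in part.

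**Figure D3:**
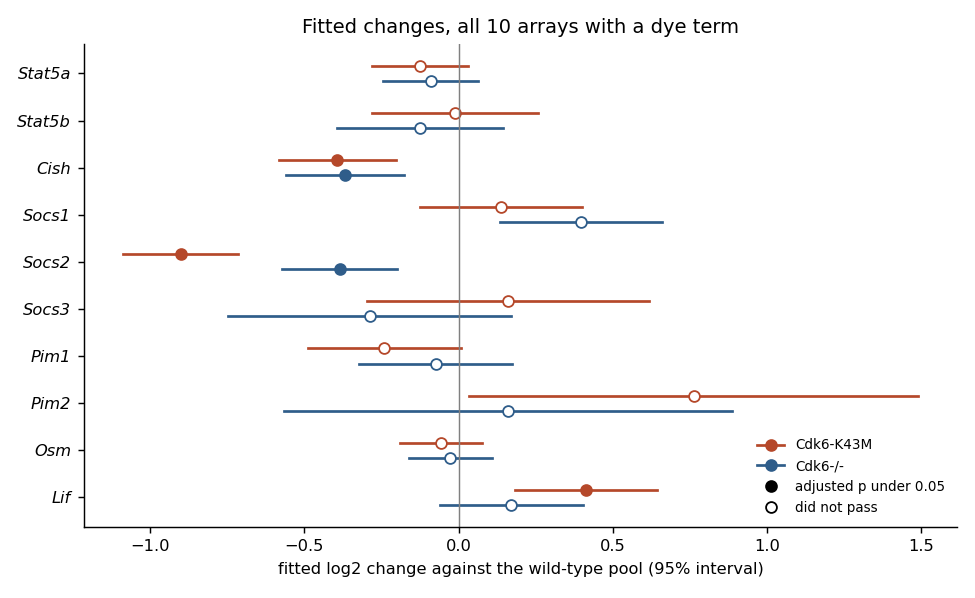
Fitted log2 change of each gene against the wild-type pool with its 95% interval (horizontal axis) from all 10 arrays, Cdk6-K43M in red above Cdk6-/- in blue, filled where the adjusted p is under 0.05. Socs2 at -0.90 is the lowest value, and Pim2 has the widest intervals.

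Set against each other, the genotypes gave 0 of 10 members past the threshold, beside 0.513% of all genes. At an unadjusted p under 0.05 only Socs2 differed, by -0.51 for Cdk6-K43M minus Cdk6-/- (SE 0.124, 95% interval -0.79 to -0.22, unadjusted p = 0.00287, adjusted p = 0.151 by limma over all genes). How many of all genes lay under that unadjusted cutoff was not counted. Socs2 was also the only member whose 4 Cdk6-K43M samples did not overlap the 4 Cdk6-/- samples, which held for 8.14% of all genes. Within slides 1, 2 and 3 the Socs2 difference was -0.37, -0.58 and -0.50, and the second probe gave -0.50 over all single samples. Because the samples do not overlap, each slide had to give a negative value, so the slides add no support. Slide 1 compared Cdk6-K43M sample 1 with Cdk6-/- sample 1, and slide 3 Cdk6-K43M sample 3 with Cdk6-/- sample 2. In the fit of all 10 arrays with a dye term the Socs2 difference was -0.52 and passed (adjusted p = 0.0369), but there the pooled RNA counts a second time. Without the library labelled Cdk6-/- replicate 4 the difference on single samples was -0.40 (adjusted p = 0.188).

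For Cish the difference was -0.03 with an interval of -0.31 to 0.26 (adjusted p = 0.949), and within slides 1, 2 and 3 it was 0.31, -0.06 and -0.29. It thus pointed different ways on different slides. Stat5a differed by -0.02 (interval -0.26 to 0.21) and Stat5b by 0.09 (interval -0.32 to 0.49), with 0.76 on slide 3 alone for Stat5b. Lif differed by 0.25 (interval -0.10 to 0.60), Socs1 by -0.25 (interval -0.65 to 0.15) and Osm by -0.05 (interval -0.25 to 0.15). The intervals of Pim1 (-0.54 to 0.21), Socs3 (-0.28 to 1.09) and Pim2 (-0.58 to 1.59) also hold 0. Socs3 and Pim2 differed by 0.99 and 1.09 within slide 2, and by -0.40 and -0.36 within slide 3. For these genes a difference between the mutants was not detectable with 4 samples each, which does not show that the mutants act alike.

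**Figure D4:**
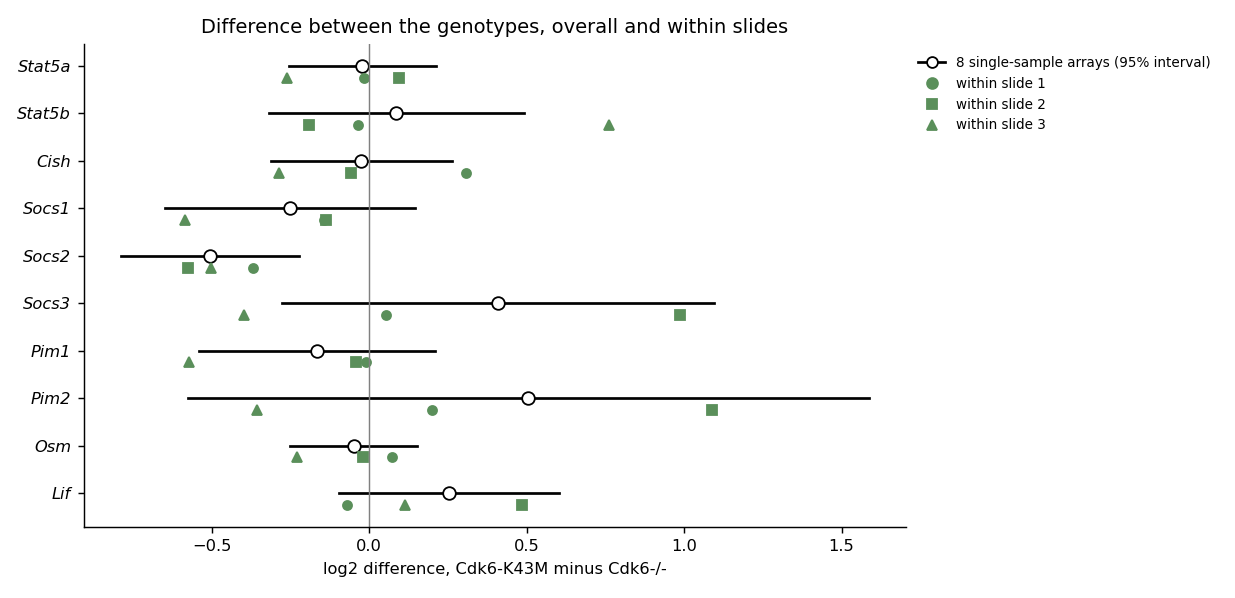
Log2 difference of Cdk6-K43M minus Cdk6-/- (horizontal axis) with its 95% interval over 8 single-sample arrays, and the same difference within each of 3 slides in green. The interval of Socs2 alone leaves out 0, and all 3 slides place Socs2 below 0, as they must where the samples do not overlap.

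The genes most like Cish over the 8 single samples, among 12044 genes with a symbol, were Mybpc2 (Pearson r = 0.949), Chchd7 (r = 0.939) and Slc23a3 (r = 0.92). Those most like Socs2 were Fnbp4 (r = 0.971), Nxf1 (r = 0.963) and Ccdc134 (r = 0.956). A high r does not mean a shared fall against wild type. Only Mybpc2 (-0.45) and Ccdc134 (-0.44) passed the limma test in Cdk6-K43M, and none of these genes passed in Cdk6-/-. Fnbp4 was at 0.18 in Cdk6-/- and -0.02 in Cdk6-K43M. Cish and Socs2 themselves had r = 0.351, so their ratios, though low in both mutants, were not ordered alike over samples. The points share the pool, the dye and the slides, and the values are a description.

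Upstream, most of the Janus kinases and other STATs did not pass the test against wild type. Of 9 genes, all tested, 2 were lower in Cdk6-K43M, and 0 were called in Cdk6-/- by the same limma test, where 1 (Jak3) had an unadjusted p under 0.05. Over all genes 10.3% were lower in Cdk6-K43M and 7.24% were called in Cdk6-/-, and the share with an unadjusted p under 0.05 was not counted. Stat2, the STAT of the type I interferon signal, was at -0.61 in Cdk6-K43M (adjusted p = 0.027) and -0.08 in Cdk6-/- (adjusted p = 0.819), and its other probe was at -0.16 in Cdk6-K43M and -0.08 in Cdk6-/-. Stat3, the main STAT of interleukin-6 signalling, was at -0.23 in Cdk6-K43M (adjusted p = 0.0446) and 0.01 in Cdk6-/- (adjusted p = 0.936). Jak2, the kinase next to most STAT5-activating receptors, was at -0.02 in Cdk6-K43M and -0.01 in Cdk6-/-. The list's median was -0.01 in Cdk6-K43M and 0.04 in Cdk6-/-. With median centring in place of loess 3 of the 9 were higher and 0 lower in Cdk6-K43M, so both calls of lower depend on that step.

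Of 19 other SOCS, PIM and negative regulator genes, 7 were lower and 0 higher in Cdk6-K43M, and 1 was lower in Cdk6-/-. Calls of lower made up 10.3% of all genes in Cdk6-K43M and 3.85% in Cdk6-/-. Ptpn6, the phosphatase SHP-1 that acts on cytokine receptors, was lower in both, at -0.39 in Cdk6-K43M (adjusted p = 0.00284) and -0.63 in Cdk6-/- (adjusted p = 0.00077). The others lower in Cdk6-K43M were Spred1 and Socs4 at -0.40, Pias1 at -0.36, Cbl at -0.29, Sh2b3 at -0.24 and Pias2 at -0.18. Spred1 restrains RAS signalling, Cbl marks receptors for removal, Sh2b3 encodes the adaptor LNK that binds JAK2, and the PIAS proteins are SUMO ligases. Other probes went against Pias2 (up to 0.27) and Sh2b3 (up to 0.01). The list's median was -0.13 in Cdk6-K43M and -0.03 in Cdk6-/-. Under median centring 0 of the 19 were lower and 1 was higher in Cdk6-K43M, so these calls of direction depend on the loess step.

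Of 23 cytokine receptor genes 17 were tested, and 2 were higher and 6 lower in Cdk6-K43M, while 1 was higher and 5 lower in Cdk6-/-. The shares of all genes were 9.77% higher and 10.3% lower in Cdk6-K43M, and 3.39% higher and 3.85% lower in Cdk6-/-. Il6ra, the interleukin-6 receptor subunit, was at -1.43 in Cdk6-K43M (adjusted p = 0.00436) and -1.71 in Cdk6-/- (adjusted p = 0.0065). Lifr, the receptor for the Lif protein, was at -0.86 in Cdk6-K43M (adjusted p = 0.0134) and -0.83 in Cdk6-/- (adjusted p = 0.0348). Its 2 other probes were at -0.85 and -0.33 in Cdk6-K43M and at -0.80 and -0.20 in Cdk6-/-. Il6st, which encodes gp130, was at 0.70 in Cdk6-K43M (adjusted p = 0.00982) and 0.16 in Cdk6-/- (adjusted p = 0.537). Il7r, the receptor on which B-cell progenitors depend, was at 0.62 in Cdk6-K43M (adjusted p = 0.0253) and 0.21 in Cdk6-/- (adjusted p = 0.471). The receptor genes thus moved in both directions.

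Il4ra was at -0.93 in Cdk6-K43M and -0.76 in Cdk6-/-, but its other probe was at -0.16 and -0.01. Csf2rb2 was at -0.88 in Cdk6-K43M and -0.56 in Cdk6-/-, and Csf2rb was at -0.68 in Cdk6-K43M and, without passing, -0.36 in Cdk6-/-. These encode near-identical beta chains, whose probes may share signal. Crlf2 was lower in Cdk6-K43M, at -0.33, and in Cdk6-/- Flt3 was lower at -0.54 and Il3ra higher at 0.63, with its other probe at 0.19. Under median centring 3 receptors were higher and 5 lower in Cdk6-K43M, where Crlf2 lost its call, and 1 was higher and 3 lower in Cdk6-/-, where Flt3 and Lifr lost theirs. With slide as a block 3 were lower in Cdk6-/-. Between the mutants 0 of the 17 passed by limma, and 3 (Il3ra, Crlf2 and Il6st) had an unadjusted p under 0.05. The share of all genes under that unadjusted cutoff was not counted.

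Of 20 other STAT5 target genes 18 were tested, and 2 were higher and 1 lower in Cdk6-K43M, while 2 were lower in Cdk6-/-. These counts stand near the background of 20.1% of all genes called in Cdk6-K43M and 7.24% in Cdk6-/-. Il2ra stood in this list and in the list of receptors. Ccnd1, cyclin D1, a partner of CDK6, was at 1.45 in Cdk6-K43M (SE 0.322, adjusted p = 0.0119) and 0.22 in Cdk6-/- (adjusted p = 0.714). Id2, an inhibitor of differentiation, was at 0.54 in Cdk6-K43M and Hif1a, a hypoxia factor, at -0.44. In Cdk6-/- the cell cycle inhibitor gene Cdkn1a was at -0.80 (adjusted p = 0.0119) and Myc at -0.45 (adjusted p = 0.0255), and in Cdk6-K43M they were at -0.19 and 0.20 without passing. The survival genes Bcl2l1 and Mcl1, at -0.22 and -0.16 in Cdk6-K43M and at 0.01 and 0.11 in Cdk6-/-, did not pass. Bcl2, another survival gene, was at 0.85 in Cdk6-K43M (adjusted p = 0.173) and 0.15 in Cdk6-/- (adjusted p = 0.854) and did not pass either. With median centring 4 were higher and 0 lower in Cdk6-K43M. Between the mutants 0 of the 18 passed by limma over all genes, 7 had an unadjusted p under 0.05, and Myc passed under median centring. The share of all genes under that unadjusted cutoff was not counted, so the 7 cannot be set against a background. For Ccnd1 the difference was 1.19 (adjusted p = 0.315) and for Myc 0.67 (adjusted p = 0.113).

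**Figure D5:**
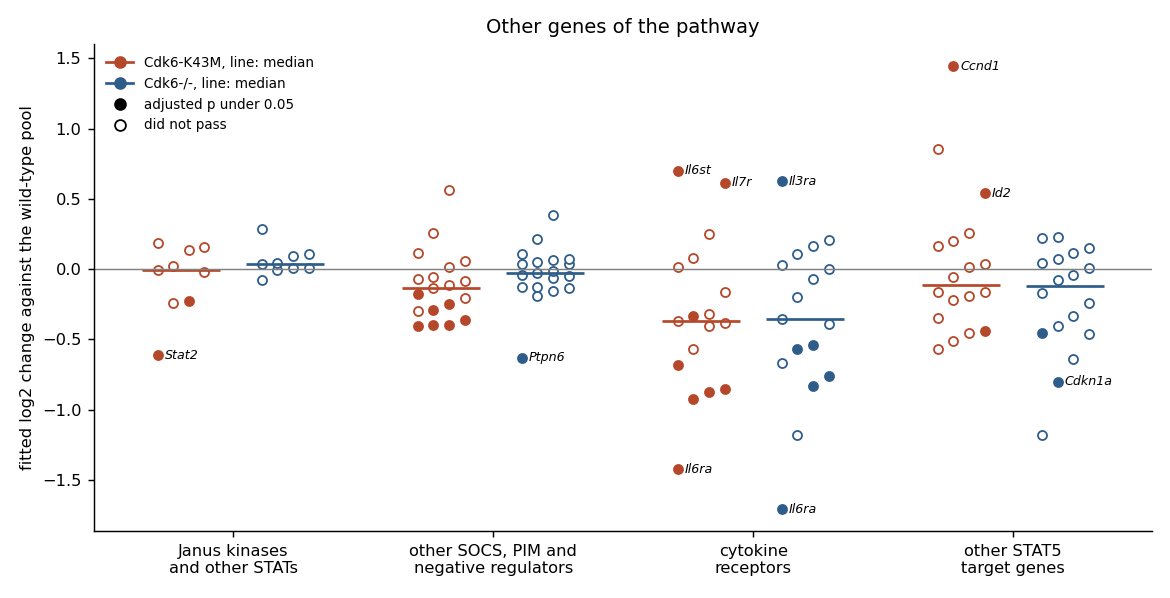
Fitted log2 change against the wild-type pool (vertical axis) of every tested gene of 4 lists, Cdk6-K43M in red left of Cdk6-/- in blue, filled where the adjusted p is under 0.05, with bars at the median. The receptors have the lowest medians, -0.37 in Cdk6-K43M and -0.36 in Cdk6-/-, and Ccnd1 at 1.45 is the highest value.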

How the data were processed

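Each of 10 2-colour Agilent arrays (design 074809, 3 slides) compared RNA of Cdk6 mutant colonies with a pool of 4 wild-type RNAs. Per the labels' protocols, 100 ng of RNA was amplified and labelled after RNeasy Micro extraction. Per the file headers, spot and background intensities come from the software Agilent Feature Extraction (version 11.5.1.1), with mm9 named for the probes. A loess-normalized table of log2 values was deposited by the authors, with an unstated background correction. Set against the scanner signals its red minus green values gave r of 0.956 to 0.972, its column medians ran from 5.68 to 5.98, and 68 cells altered to dates were left out.

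Intensities were analysed with limma 3.58.1 (R 4.3.3, data.table version 1.17.8). Background was corrected by normexp (offset 50) on median signals, and loess was fitted within arrays with control spots at weight 0. Flagged spots (1719 values) were set to missing and spots of a probe averaged. Symbols came from RefSeq annotation of GRCm38.p6 by transcript accession (58.3% of probes matched). A probe was kept if well above background on 3 of 4 single-sample arrays of a genotype or in 5 of 10 wild-type channels, and where several were kept the brightest represented the gene. Comparisons with wild type used all 10 arrays, swaps with reversed sign and a dye term. The genotypes were compared on the 8 single-sample arrays. Benjamini-Hochberg adjustment ran over 22008 genes (threshold 0.05). Because a swapped pool repeats RNA already on single arrays, the residual spread with swaps may be too small. The fits were run on simulated data with swaps drawn independently of the single samples and no spread of the pool. That run cannot show how much repeated RNA or the pool's spread matters.

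All 10 members were named, other genes of the pathway where a fixed list's member passed, and the 3 genes most like Cish and Socs2. The members and lists were chosen with earlier results of these data known. Alternatives were background correction, signals, centring, the deposited table, filter, probe choice, swaps, slide, the pool's spread, replicate block and leaving out samples.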

Additional observations from a re-analysis of the deposited data

Results flagged for a closer look

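In 2 of 20 groups of 4 samples (10 genes in 2 genotypes) 1 sample stood far from the other 3 by Dixon's test, which chance alone does in about 1 of 20 groups. The log2 ratio of Osm in Cdk6-K43M replicate 3 was -0.30, below the 3 others between -0.03 and 0.02. The log2 ratio of Socs2 in the library labelled Cdk6-/- replicate 4 was -0.0196, above the 3 others between -0.48 and -0.41. In the same library Cdk6 was at 0.00. Without it the Socs2 change in Cdk6-/- was -0.45 (adjusted p = 0.00963 by limma).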

How the results depend on the processing

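Of 170 alternative values of the 10 genes, 152 in Cdk6-K43M, 149 in Cdk6-/- and 156 between the genotypes kept their direction and their side of the threshold. Genes past the threshold numbered 4422 in Cdk6-K43M, 1593 in Cdk6-/- and 113 between the genotypes. Agilent's processed signals gave 73 genes between the genotypes and 0 members lower in Cdk6-/-, with Stat5b in Cdk6-K43M at 0.0245. Median centring shifted the median of all genes to 0.11 in Cdk6-K43M and 0.03 in Cdk6-/-, with 5595 genes higher and 773 lower in Cdk6-K43M, beside 2150 and 2272 with loess, and with 802 genes in Cdk6-/-, 509 higher and 293 lower, beside 745 and 848. Between the genotypes it gave 83 higher and 43 lower, beside 58 and 55. Under it 2 members were higher (Lif at 0.47 and Socs1 at 0.34) and 1 lower in Cdk6-K43M (Socs2 at -0.65), with 0 lower in Cdk6-/-. Relative to the shifted median Socs2 was at -0.76 and Cish at -0.25 in Cdk6-K43M. The signs that turned under median centring were Stat5a (0.0755), Stat5b (0.188), Pim1 (0.0494) and Osm (0.135) in Cdk6-K43M, Osm (0.0116) in Cdk6-/-, and Stat5a (0.111), Cish (0.163), Pim1 (0.037) and Osm (0.0705) between the genotypes. The mean of kept probes gave 1 member lower in Cdk6-/-, Osm there at 0.0243, and Stat5a at 0.00921 between the genotypes. Without the swaps 3290 genes passed in Cdk6-/- and 0 members were higher in Cdk6-K43M, and the signs turned of Stat5b (0.121), Socs1 (-0.0247) and Socs3 (-0.0884) in Cdk6-K43M and of Stat5b (0.0359) and Lif (-0.0537) in Cdk6-/-. Slide as a block gave 638 genes and 0 members in Cdk6-/- and 33 genes between the genotypes. Wider standard errors, as if the pool had a spread of its own, left 1230 genes in Cdk6-K43M with 1 member lower (Socs2) and 0 higher, and 124 genes with 0 members in Cdk6-/-. All 10 arrays gave 560 genes between the genotypes and 1 member lower (Socs2). The causes of these differences between settings were not tested.

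Leaving out 1 sample at a time gave 612 to 1931 genes in Cdk6-/- and 36 to 77 between the genotypes, with 0 to 2 members lower and 0 to 1 higher in Cdk6-/-, and 1 to 2 higher in Cdk6-K43M. The lowest count in Cdk6-/-, 612, was without Cdk6-/- replicate 1, and 951 was without replicate 2. Values on both sides of 0 were found for Stat5b in Cdk6-K43M (-0.0953 to 0.0629), and between the genotypes for Stat5b (-0.0516 to 0.1999), Stat5a (-0.105 to 0.0341), Cish (-0.132 to 0.0576), Pim1 (-0.242 to 0.00583) and Osm (-0.0821 to 0.0242). Same-numbered samples deviated together with r of 0.084, -0.066, 0.228 and 0.139, and 2 of 4 Cdk6-/- samples correlated best with their own number, so the numbers were not taken as pairs. The replicate block gave 37 genes between the genotypes and changed no member's call. Signals of Lif and of the second Osm probe close to background limit their precision.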
